A study of Mus musculus with 4 samples.

Results

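Cytokines, chemokines and their receptors are the genes through which injured renal tubules call in and instruct immune cells, and 39 of them were followed here in hypoxic TKPTS cells. The members were a fixed list of symbols, and all 39 were found among the 22063 genes of the deposited table. TKPTS, written TKPT in the sample labels, is a line of proximal tubule cells from the mouse kidney. All 4 libraries came from wild-type TKPTS cells transfected with an siRNA, kept for 24 h at 1% O2 and 5% CO2 and then for 12 h in normal oxygen. The 2 control libraries received the scrambled siRNA (si-NC, replicates 2 and 3) and the 2 others the siRNA against *Itgb6* (si-*Itgb6*, replicates 1 and 3). There was 1 cell line, 1 siRNA and no library of untransfected or normoxic cells, and the methods of the study call its experiments biologically independent replicates without saying how the sequenced cultures were kept apart, so p-values measure the spread between these libraries.

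Tubular cells send inflammatory signals in several forms. Alarmins such as IL-1α, IL-33 and HMGB1 are kept inside the cell and act when it is damaged. Chemokines are secreted and attract leukocytes, and those of the CXC class with the neutrophil receptor CXCR2 (CXCL1, CXCL2, CXCL5) differ in their target cells from those of the CC class, such as CCL2 for monocytes and CCL20 for cells with CCR6. BMPs and activins belong to the TGF-β superfamily and act on serine/threonine kinase receptors.

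The libraries held 15435074 to 17220281 estimated counts. *Itgb6*, the siRNA target, had 285 and 284 counts in si-NC and 279 and 260 in si-*Itgb6*, and the log2 of its ratio between si-*Itgb6* and si-NC (log2 ratio, from edgeR) was -0.0051 (95% interval -0.27 to 0.26; adjusted p = 0.991, edgeR). The *Itgb6* mRNA level in these libraries thus did not bear out the labels. The study reports less of the encoded integrin by western blot in hypoxic TKPTS cells with this siRNA. Its methods state that the efficiency was checked by qPCR and western blot, without saying whether in the sequenced cultures. Every direction below is between libraries labelled si-*Itgb6* and si-NC. Of 9 general kidney tubule markers, 8 had at least 1 FPKM in every library, while of 7 markers of the mature proximal tubule only *Aqp1* did, and the transporter genes *Slc34a1* and *Slc5a2* were listed at 0. *Ptprc*, the pan-leukocyte gene, had at most 0.077 FPKM, *Cd3e*, a T cell gene, was listed at 0, and the 9 leukocyte markers summed to 97.8 to 106.2 FPKM in si-NC and 91.4 to 98.9 FPKM in si-*Itgb6*, nearly all of it from *Cd68*, *Csf1r* and *Cd14*. The summed level of the general tubule markers was 3083 to 3105 FPKM in si-NC and 2968 to 2972 in si-*Itgb6*, that of 4 injury markers 833 to 856 and 764 to 785, and that of the mature proximal tubule markers 10.2 to 11.6 and 15.41 to 16.2. Single markers passed the test in both directions: *Krt8* of the general list fell (log2 ratio -0.20, adjusted p = 0.00881), *Aqp1* rose (0.59, adjusted p = 0.000617), and among the injury markers *Lcn2*, which made up most of their sum, fell (-0.17, adjusted p = 0.0322) while *Havcr1* rose (0.19, adjusted p = 0.0358, edgeR). None of the 7 fibroblast and 5 endothelial markers reached 1 FPKM in all libraries. The part of these shifts in the differences below was not tested. The differences also moved with base composition: the higher the GC content of a transcript, the lower its log2 ratio of si-*Itgb6* to si-NC, with a Spearman's rho of -0.364 over 11709 genes and -0.426 over the 31 members tested, a description across genes and not across replicates. In bulk libraries, fewer cells that express a gene and less RNA per cell cannot be told apart.

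Short stretches upstream of the start sites are shown first, because members with the same sequence element stood at very different levels in these cells. The element searched was GGANNTTCC, a narrow form of the κB site bound by NF-κB, and other forms of that site were not searched. Both strands were read, and overlapping places of this element on both strands were counted once. In RefSeq promoter windows (250 bases before to 50 after the start, GRCm38.p6), available for 28 of the 39 members, 6 held it (6 of their 33 windows), *Cxcl1*, *Cxcl2*, *Cxcl10*, *Il6*, *Tnf* and *Kitl*. It was found in 4.26% of all 32851 windows. No window was available for *Bmp2*, *Ccl2*, *Ccl5*, *Ccl7*, *Cxcl5*, *Cxcl16*, *Il7*, *Il15*, *Il23a*, *Tnfrsf10b* and *Tslp*, so these were not searched. The stretches of 79 bases below have the element in capitals and run 5′ to 3′ on the strand of the gene.
Cxcl1 (chr5:90891140-90891218, plus strand, element at -70 from the start): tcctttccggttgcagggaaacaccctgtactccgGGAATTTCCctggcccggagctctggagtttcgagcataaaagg
Cxcl2 (chr5:90903768-90903846, plus strand, element at -96): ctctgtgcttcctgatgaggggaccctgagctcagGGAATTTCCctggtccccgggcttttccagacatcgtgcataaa
Cxcl10 (chr5:92349004-92349082, minus strand, element at -158): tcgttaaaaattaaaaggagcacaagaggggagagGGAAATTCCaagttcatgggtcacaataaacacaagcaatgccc
Il6 (chr5:30013036-30013114, plus strand, element at -43): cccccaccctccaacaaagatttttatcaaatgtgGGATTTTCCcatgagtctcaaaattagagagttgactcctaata
Tnf (chr17:35202176-35202254, minus strand, element at -212): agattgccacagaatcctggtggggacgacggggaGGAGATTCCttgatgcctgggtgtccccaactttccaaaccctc

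*Cxcl1* and *Cxcl2* share the same 9 letters, GGAATTTCC. Their mean levels over the 4 libraries were 57.4 and 20.1 FPKM, and that of *Cxcl10* was 23.0 FPKM, whereas *Tnf* had 0.20 FPKM and *Il6* 0.0065 FPKM. A match to these letters is a description of the window and not a site in use, and no match says only that the letters are not in the window.

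Of the members, 26 had a mean of at least 1 FPKM (fragments scaled by transcript length and library size, the per-length level given by the authors). Only 3 stood above 100 FPKM. *Mif*, macrophage migration inhibitory factor, had 1003, 1048, 993 and 966 FPKM in si-NC 2, si-NC 3, si-*Itgb6* 1 and si-*Itgb6* 3, the order used throughout. *Hmgb1*, a chromatin protein that acts as an alarmin when released, had 484, 483, 502 and 534 FPKM. *Cxcl16*, a transmembrane chemokine for CXCR6, had 138, 149, 148 and 151 FPKM. *Mif* and *Hmgb1* are both known for processed pseudogene copies that can share reads. Exons of *Hmgb1* also overlap those of *Mm2pr* on the same strand and of *Uspl1* on the opposite strand. The exons of *Cxcl16* overlap those of *Zmynd15* on the opposite strand, with counts that were not whole in 4 libraries. Opposite-strand overlaps were also listed for *Bmp4* (*Gm15217*), *Il7* (*Gm16685*) and *Il1b* (*Il1bos*).

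A band of 13 members between 10 and 100 FPKM held the neutrophil chemokines, 3 of the 4 CC chemokines and the alarmins *Il1a* and *Il33*. By mean level it ran from *Ccl20* (58.2 FPKM), *Cxcl1* (57.4), *Cxcl5* (55.9) and *Ccl2* (34.6) through *Tnfrsf1a* (31.3), the main TNF receptor, *Il1a* (30.2), *Cxcl10* (23.0) and *Cxcl2* (20.1) to *Il23a* (16.2), *Ccl5* (14.2), *Il33* (11.9), *Bmp4* (11.9) and *Tnfrsf10b* (10.1), the mouse TRAIL receptor. *Il23a* encodes the p19 subunit of IL-23, whose partner subunit, from *Il12b*, is needed for its secretion, and *Il12b* was listed at 0. The levels of *Ccl20*, *Cxcl1* and *Cxcl5* lay within the spread of their libraries, which reached from 47.3 to 69.5 FPKM for *Cxcl1* alone. The 10 members from 1 to 10 FPKM were *Bmp8b* (5.15), *Acvr1b* (4.41), *Lif* (4.22), *Inhba* (3.01), *Lifr* (2.96), *Tnfsf15* (2.61), *Cx3cl1* (2.57), *Bmp2* (2.45), *Il7* (1.68) and *Cntf* (1.42).

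**Figure D1:**
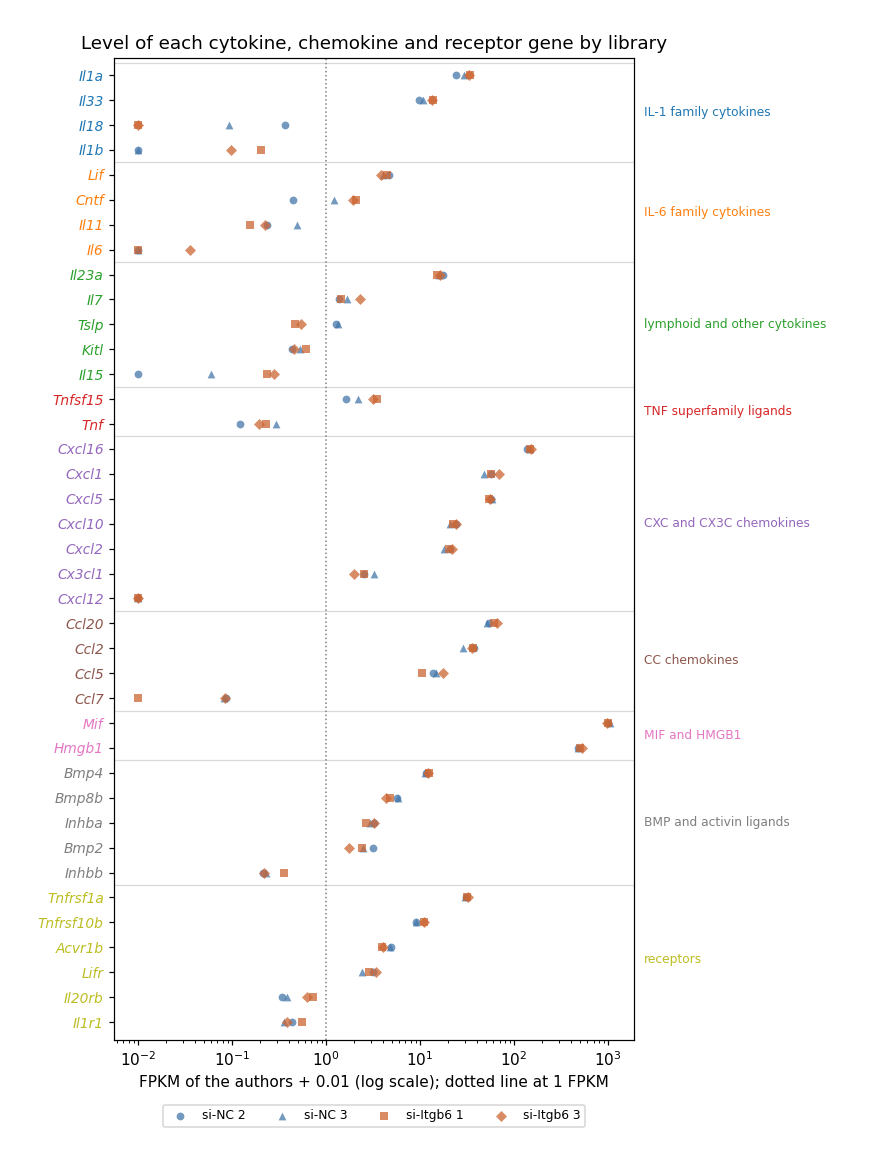
Level of all 39 members in each of the 4 libraries, as FPKM + 0.01 on a log scale (x axis), grouped by role (y axis); circles and triangles are si-NC 2 and 3, squares and diamonds si-Itgb6 1 and 3. Mif, Hmgb1 and Cxcl16 stand to the right of 100 FPKM, and Cxcl12 is listed at 0 in all libraries.

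At the other end, 13 members had a mean under 1 FPKM, and 8 of those did not pass the filter on low counts and were not tested. *Cxcl12*, the ligand of CXCR4, had 0 counts in all 4 libraries, where a count of 0 allows up to 3 counts, or 0.174 to 0.194 CPM (counts scaled to the size of the library). *Il6* had 1 count in all, in si-*Itgb6* 3, and *Ccl7* had 1, 1, 0 and 1. *Il1b* had 0 and 0 counts in si-NC and 4 and 2 in si-*Itgb6*, and *Il18* had 5 and 1 in si-NC and 0 and 0 in si-*Itgb6*. *Il15* had 0, 1, 4 and 6 counts, *Tnf* 3, 8, 5 and 5, and *Il11* 6, 12, 4 and 7. At this depth a difference in these 8 genes was not detectable. Counting error alone is covered by these limits. *Il1b*, *Il18*, *Il6* and *Tnf*, the textbook products of activated macrophages, were thus all under 1 FPKM, against a mean of 30.2 FPKM for *Il1a*.

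The question of the comparison was which of these signals differ once *Itgb6* is targeted. Of the 31 members tested, 3 rose and 0 fell in si-*Itgb6* with an adjusted p below 0.05 in edgeR (quasi-likelihood, Benjamini-Hochberg over 11727 genes), where 2.11% of all genes rose and 2.52% fell. At the thresholds of the study, a raw p below 0.05 with a fold over 1.2, 12 members were higher and 4 lower. Of all genes 4.37% were higher and 5.20% lower. Among the 12, the higher counts of *Kitl*, *Inhba*, *Lifr* and *Il7* had no matching difference per length, as described below. In 21 of the 31 members (67.7%) no si-NC value fell within the range of si-*Itgb6* or the reverse, against 49.2% of all genes. The median log2 ratio of the 31 was 0.15, with 21 above and 10 below 0, and that of all genes was 0.0002. The list had been drawn up with results of these libraries known, so these shares describe it. *Tslp* and *Cntf* passed the filter through their higher group. No grouping of 2 against 2 libraries can bring a permutation p below 0.333.

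**Figure D2:**
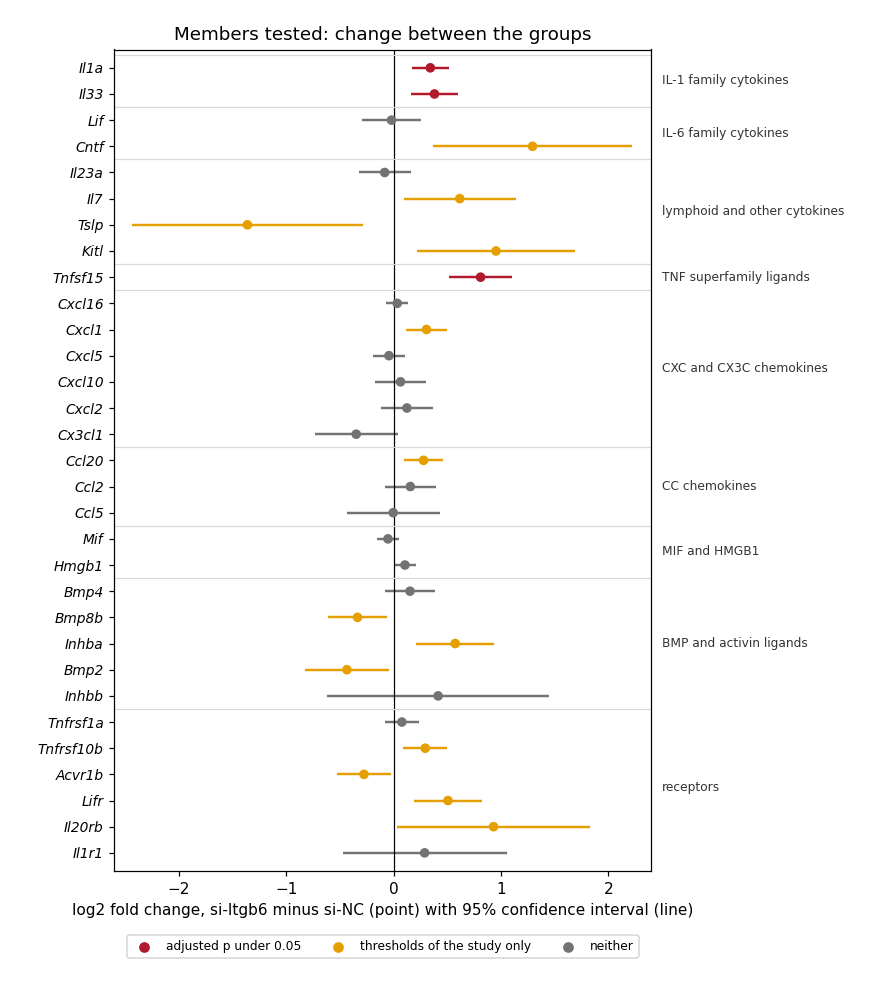
The log2 ratio (log2 fold change) of the 31 members tested, si-Itgb6 minus si-NC (points), with 95% confidence intervals (lines), by role. Tnfsf15, Il1a and Il33 (red) pass an adjusted p of 0.05, 13 others (orange) pass only the thresholds of the study, and most chemokines straddle 0.

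*Tnfsf15* encodes TL1A, a TNF superfamily ligand that stimulates lymphocytes through the receptor DR3. It had 152 and 220 counts in si-NC and 312 and 307 in si-*Itgb6*, or 11.0 ± 2.42 CPM (SD, n = 2) against 19.4 ± 1.07 CPM (SD, n = 2). Both si-*Itgb6* libraries were above both si-NC libraries. It rose 1.75-fold, a log2 ratio of 0.81 (SE 0.15, adjusted p = 0.000736, edgeR). The gene (ENSMUSG00000050395) spans chr4:63727084-63745113 in GRCm38, minus strand, and no exon of another gene overlaps its exons. Without si-NC replicate 2, which had the lowest value, the log2 ratio was 0.61 and the adjusted p 0.182 (edgeR). *Tnfrsf25*, which encodes DR3, had a mean of 0.0273 FPKM.

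*Il1a* and *Il33*, both of the IL-1 family, rose by less. *Il1a* had 775 and 996 counts in si-NC and 1041 and 1091 in si-*Itgb6*, or 52.6 ± 7.17 CPM (SD, n = 2) against 66.8 ± 0.699 CPM (SD, n = 2). Its log2 ratio was 0.34 (SE 0.09, adjusted p = 0.0159, edgeR), a 1.27-fold rise. *Il33*, which signals through ST2 (*Il1rl1*), had 395 and 470 counts in si-NC and 513 and 558 in si-*Itgb6*. Its CPM were 25.7 ± 2.12 (SD, n = 2) and 33.5 ± 0.530 (SD, n = 2), and its log2 ratio was 0.38 (SE 0.11, adjusted p = 0.0323, edgeR). In both genes the groups did not overlap, and si-NC replicate 2 was the lowest library. Without si-NC replicate 2, 0 of the 3 calls held, and *Il1a* had a log2 ratio of 0.21 (adjusted p = 0.536) and *Il33* of 0.30 (adjusted p = 0.476, edgeR). *Il33* also lost its call without si-NC 3, at a larger log2 ratio of 0.47 (adjusted p = 0.0826), and without si-*Itgb6* 3, at 0.37 (adjusted p = 0.0903, edgeR). The fit without si-NC 2 called 13 genes in all. After trends on GC content and transcript length were taken out, *Il1a* had a log2 ratio of 0.24 (adjusted p = 0.142) and *Il33* 0.30 (adjusted p = 0.137), while *Tnfsf15* had 0.76 (adjusted p = 0.00481, edgeR). *Il1a* (ENSMUSG00000027399) spans chr2:129299610-129309972 on the minus strand and *Il33* (ENSMUSG00000024810) chr19:29925114-29960718 on the plus strand. Exons of *Gm14023* overlap those of *Il1a* on the opposite strand, and the libraries carry no strand.

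The promoter windows of *Tnfsf15* and *Il1a* are shown as those of the members with the lowest adjusted p-values. The start site is the single capital, and in *Il1a* the capitals before it mark TGACTCA, a match to the AP-1 element TGANTCA searched on both strands, which 7.81% of all windows held and 6 of the 28 members.
Tnfsf15 (chr4:63745010-63745309, minus strand, GRCm38.p6): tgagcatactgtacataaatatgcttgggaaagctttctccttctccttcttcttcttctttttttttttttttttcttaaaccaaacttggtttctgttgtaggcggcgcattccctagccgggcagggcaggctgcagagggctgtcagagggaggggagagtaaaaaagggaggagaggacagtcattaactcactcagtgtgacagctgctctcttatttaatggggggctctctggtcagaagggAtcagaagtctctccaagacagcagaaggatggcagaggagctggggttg
Il1a (chr2:129309923-129310222, minus strand, GRCm38.p6): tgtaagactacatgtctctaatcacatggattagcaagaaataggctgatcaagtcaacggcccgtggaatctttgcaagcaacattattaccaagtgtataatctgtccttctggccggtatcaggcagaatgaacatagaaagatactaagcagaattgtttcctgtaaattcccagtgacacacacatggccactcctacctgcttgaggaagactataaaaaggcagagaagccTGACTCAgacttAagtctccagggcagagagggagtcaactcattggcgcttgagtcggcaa

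**Figure D3:**
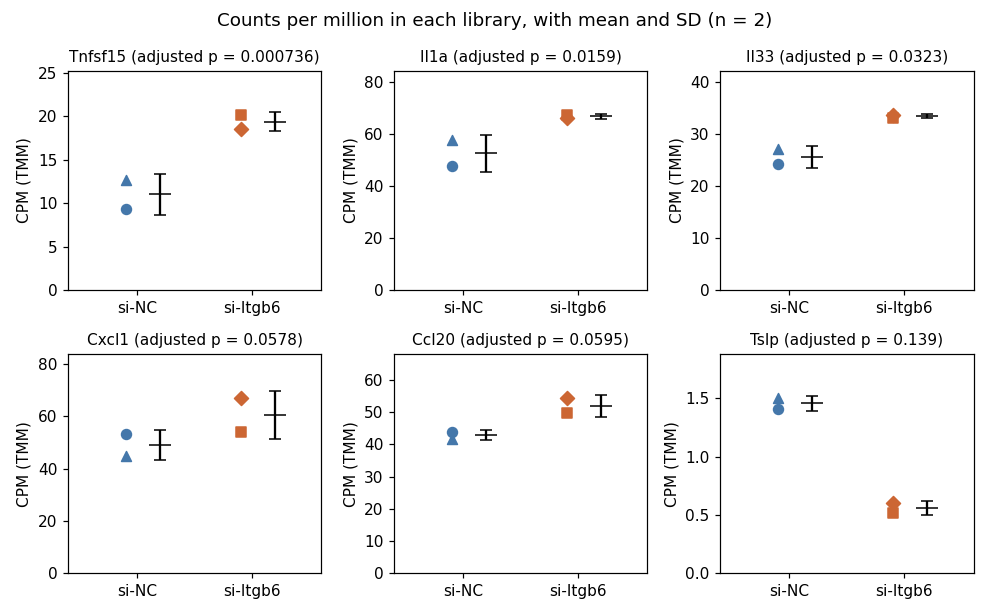
CPM after TMM normalization (y axis, from 0) in each library of 6 members, with the mean and SD of each group (n = 2). Tnfsf15, Il1a and Il33 pass an adjusted p of 0.05, while Cxcl1, Ccl20 and Tslp have groups that do not overlap but adjusted p-values of 0.0578, 0.0595 and 0.139 (edgeR). Tslp passed the filter on low counts through si-NC, its higher group, so its separation is not support for a difference.

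Of the 9 chemokines tested, 0 passed the adjusted threshold, where 4.62% of all genes passed. *Cxcl1* and *Ccl20* passed the thresholds of the study, where 9.57% of all genes did. *Cxcl1* had 867 and 776 counts in si-NC and 835 and 1106 in si-*Itgb6*, or 56.1, 47.3, 56.8 and 69.5 FPKM, so that si-*Itgb6* 3 stood well above the others, and its log2 ratio was 0.31 (SE 0.10, adjusted p = 0.0578, edgeR). *Ccl20* had 715, 722, 765 and 897 counts and a log2 ratio of 0.28 (adjusted p = 0.0595, edgeR). The exact test and the likelihood ratio test of edgeR took both under an adjusted p of 0.05. After the GC and length trends were taken out, *Cxcl1* had 0.24 (adjusted p = 0.193) and *Ccl20* 0.13 (adjusted p = 0.489, edgeR). Without 1 library *Cxcl1* ranged from 0.14 (without si-*Itgb6* 3) to 0.45 (without si-*Itgb6* 1), and *Ccl20* from 0.21 to 0.35. For *Cxcl5*, with 1435, 1570, 1306 and 1470 counts, the log2 ratio was -0.043 and its 95% interval reached from -0.19 to 0.10. For *Cxcl2*, with 382, 360, 357 and 414 counts, it was 0.12 with an interval from -0.12 to 0.36. The neutrophil chemokines *Cxcl1*, *Cxcl2* and *Cxcl5* lie together on chromosome 5, between 90759360 and 90905938.

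*Cxcl16*, the chemokine with the highest level, had the narrowest interval of the chemokines, from -0.07 to 0.14 around a log2 ratio of 0.034. *Ccl2* had 490, 401, 461 and 486 counts, with an interval from -0.08 to 0.39, and *Ccl5* had 119, 136, 86 and 157 counts, with an interval from -0.44 to 0.43. *Cxcl10*, which attracts T cells through CXCR3, had 435, 397, 384 and 446 counts and an interval from -0.17 to 0.30, and its exons overlap those of *Art3* on the opposite strand. *Cx3cl1*, fractalkine, had 137, 184, 129 and 110 counts and a log2 ratio of -0.35 with an interval from -0.73 to 0.04, and it ranged from -0.51 to -0.16 without 1 library. In *Ccl2*, *Ccl5* and *Cxcl10* the groups overlapped.

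*Mif* had a log2 ratio of -0.052 (95% interval -0.15 to 0.05), and *Hmgb1* of 0.11 (0.0058 to 0.21; adjusted p = 0.240, edgeR). After the GC and length trends were taken out, their signs turned, to 0.064 and -0.0017.

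Among the remaining cytokines the largest differences were in genes with few counts. *Tslp*, an epithelial cytokine that acts on dendritic cells, had 23 and 26 counts in si-NC and 8 and 10 in si-*Itgb6*, a log2 ratio of -1.36 (SE 0.53, adjusted p = 0.139, edgeR). Its groups did not overlap, and the 4 values without 1 library ranged from -1.48 to -1.25. *Tslp* passed the filter on low counts through si-NC, its higher group, so neither the separation nor this range is support for a difference. *Cntf* had estimated counts of 7.51, 22.4, 34.7 and 34.7 and a log2 ratio of 1.29 with a 95% interval from 0.36 to 2.22 (adjusted p = 0.0988, edgeR). It was 0.78 without si-NC 2 and 2.15 without si-NC 3. Its exons overlap those of *Zfp91* on the same strand and none of its estimated counts was whole, so its counts cannot be assigned with certainty. *Lif*, with 291, 265, 270 and 252 counts, had a log2 ratio of -0.019 (interval -0.29 to 0.25), and *Il23a*, with 387, 374, 316 and 369 counts, of -0.082 (interval -0.33 to 0.16).

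For 4 members, *Kitl*, *Inhba*, *Lifr* and *Il7*, a higher count in si-*Itgb6* did not go with a matching difference per length. The counts and the FPKM of a gene together give the average transcript length that the authors' processing used in each library, and this was over 1.1-fold longer in si-*Itgb6* for these 4 of the 31 members and shorter in 0. Among all genes with a value it was that much longer in 5.90% and shorter in 4.86%.

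*Inhba*, the activin A subunit, had 123, 139, 206 and 164 counts, all of si-*Itgb6* above si-NC, with a log2 ratio of 0.57 (adjusted p = 0.0576, edgeR), or 0.35 without si-*Itgb6* 1. Its FPKM were 3.22, 2.92, 2.65 and 3.24, with overlapping groups, and the implied lengths were 2358, 2762, 5042 and 3031 bases. With these lengths entered as an offset, the log2 ratio of *Inhba* was -0.051 (adjusted p = 0.931, edgeR). *Kitl*, stem cell factor, had 25, 26, 52 and 42 counts and a log2 ratio of 0.95, but 0.426, 0.522, 0.596 and 0.445 FPKM, with implied lengths of 3621, 2892, 5653 and 5654 bases. Its value with the offset was 0.15 (adjusted p = 0.885, edgeR).

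*Lifr*, the LIF receptor, had 152, 192, 211 and 254 counts and a log2 ratio of 0.51 (adjusted p = 0.0520, edgeR), and its FPKM were 3.18, 2.39, 2.83 and 3.42. Its implied length was 2946 bases in si-NC replicate 2 and 4449 to 4830 in the other libraries, and its value with the offset was 0.20. *Il7*, a lymphocyte growth factor, had 50, 69, 69 and 105 counts and 1.36, 1.66, 1.43 and 2.28 FPKM, and its log2 ratio of 0.62 became 0.31 with the offset and 0.34 without si-*Itgb6* 3. The lengths depend on how reads were given to isoforms, by a tool not given in the sources used here, and no isoform was measured separately. For *Tnfsf15*, *Il1a* and *Il33* the ratio of implied lengths, si-*Itgb6* over si-NC, was 0.9998, 1.0 and 0.975.

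**Figure D4:**
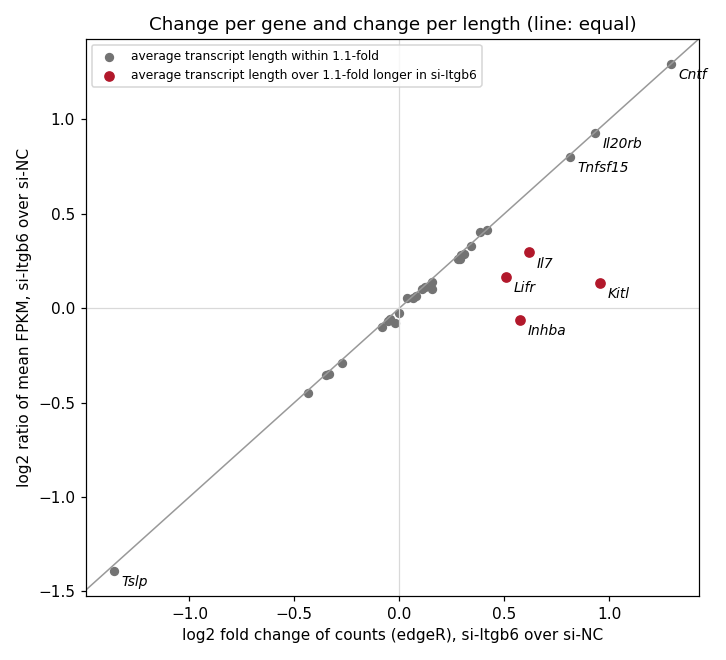
The log2 ratio of counts (x axis) against the log2 ratio of mean FPKM (y axis), si-Itgb6 over si-NC, for the 31 members tested; the line marks equality. Kitl, Inhba, Lifr and Il7 (red), whose implied transcript length was over 1.1-fold longer in si-Itgb6, fall below the line, and the others lie along it.

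Of the BMP and activin ligands, *Bmp2* and *Bmp8b* were lower at the thresholds of the study and not at the adjusted p. *Bmp2* had 183, 151, 131 and 104 counts and a log2 ratio of -0.43 (SE 0.19, adjusted p = 0.206, edgeR), which ranged from -0.66 (without si-*Itgb6* 1) to -0.23 (without si-*Itgb6* 3). *Bmp8b* had estimated counts of 269, 298, 214.9 and 211.8 and a log2 ratio of -0.34 (adjusted p = 0.160, edgeR), and its exons overlap those of *Ppie* and *Gm17244* on the opposite strand. *Bmp4*, a regulator of ureteric branching in the developing kidney, had 349, 376, 371 and 396 counts and a log2 ratio of 0.15 (interval -0.08 to 0.39). *Inhbb*, the activin B subunit, had 14 to 23 counts.

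*Acvr1b*, which encodes the activin receptor ALK4, had 348 and 368 counts in si-NC and 266 and 297 in si-*Itgb6*, a log2 ratio of -0.28 (adjusted p = 0.215, edgeR). The death receptor *Tnfrsf10b* had 469 and 499 counts in si-NC and 546 and 584 in si-*Itgb6*, with a log2 ratio of 0.30 (SE 0.10, adjusted p = 0.0858, edgeR). Its replicates were close, at 28.8 ± 0.0941 CPM (SD, n = 2) and 35.4 ± 0.139 CPM (SD, n = 2), and the values without 1 library stayed between 0.29 and 0.30. Counting error at these counts is larger than these SDs, so neither the closeness nor the narrow range measures precision. *Tnfrsf1a* had 1087, 1122, 1045 and 1174 counts and a log2 ratio of 0.077 (interval -0.08 to 0.23). *Il20rb*, a receptor subunit for IL-19, IL-20 and IL-24, had 15, 18, 31 and 29 counts and a log2 ratio of 0.93 with a 95% interval from 0.03 to 1.83 (adjusted p = 0.253, edgeR). *Il1r1*, the IL-1 receptor, had 33, 29, 42 and 30 counts, with overlapping groups.

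Receptors, antagonists and signalling genes around the members were read from 7 lists of 206 genes, of which 205 were in the table and 135 were tested. Of these, 2 rose and 2 fell at an adjusted p under 0.05, a share of 2.96%, where 4.62% of all genes passed, and their median log2 ratio was 0.0008. *Ptpn11*, the phosphatase SHP2 downstream of gp130 and growth factor receptors, fell from 97.0 ± 8.40 to 73.0 ± 2.13 CPM (SD, n = 2 each), with 1679 and 1573 counts against 1107 and 1227 and a log2 ratio of -0.41 (adjusted p = 0.000964, edgeR). *Smurf1*, a ubiquitin ligase for BMP SMADs, fell by 0.25 on the log2 scale (adjusted p = 0.00905, edgeR), and its value was -0.16 (adjusted p = 0.155) after the GC and length trends were taken out. In the TNF list, *Cflar* (cFLIP, an inhibitor of caspase-8) rose with a log2 ratio of 0.39 (adjusted p = 0.00879, edgeR), and *Ripk1*, a kinase of the TNF receptor complex, with 0.44 (adjusted p = 0.0313, edgeR). The estimated counts of *Cflar* were not whole in 4 libraries. Without si-NC replicate 2 the log2 ratio was -0.32 for *Ptpn11* (adjusted p = 0.232), -0.17 for *Smurf1* (adjusted p = 0.501), 0.29 for *Cflar* (adjusted p = 0.401) and 0.37 for *Ripk1* (adjusted p = 0.451, edgeR). *Ripk1* lost its call also without si-NC 3, at 0.52 (adjusted p = 0.102), and without si-*Itgb6* 3, at 0.35 (adjusted p = 0.201, edgeR).

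By list, 1 of 18 tested genes of IL-6 family signalling fell, 2 of 20 of the TNF list rose, and 1 of 29 of the BMP and activin list fell. Over all genes 2.11% rose and 2.52% fell, and lists of 8 to 29 genes are too small to tell from these shares. In the other 4 lists 0 genes passed: 0 of 21 around IL-1, 0 of 23 NF-κB subunits and feedback genes, 0 of 8 other chemokines and their receptors, and 0 of 16 receptors of further cytokines. At a raw p below 0.05 and a fold over 1.2 these 4 held 1, 1, 0 and 1 genes, where 9.57% of all genes passed. Over the 23 NF-κB genes the median log2 ratio was -0.12, with 16 below and 7 above 0. The list was chosen with earlier results of these data known, and the part of GC content in this was not tested.

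These lists also give the mRNA levels of some receptors, antagonists, related ligands and proteases around the members. Protein, surface level and signalling were not measured in these libraries. *Il6st*, which encodes gp130, had 12.3 FPKM and *Cntfr* 6.41 FPKM. *Il1rn*, the IL-1 receptor antagonist, had 40.0 FPKM, and *Il1r1* 0.423 FPKM, and *Il1rl1* had 3.03 FPKM. *Il24*, a ligand of IL-20 receptors, had 66.6 FPKM, while *Il20rb* had 0.512 FPKM, *Il22ra1* 0.723 FPKM, and *Il20ra*, *Ccr2*, *Ccr6* and *Il20* were listed at 0. Of the chemokine receptors, *Cxcr4* had 0.454 FPKM and *Cxcr2* 0.205 FPKM, and *Cx3cr1* had 0.0303 FPKM. *Adam10* and *Adam17*, the proteases that release CXCL16 and CX3CL1 from the cell surface, had 15.2 and 13.4 FPKM, with log2 ratios of -0.028 and 0.11 that did not pass the test (adjusted p = 0.893 and 0.510, edgeR).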

How the data were processed

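The authors made non-strand-specific poly(A) libraries, sequenced them in pairs, and deposited an estimated count and an FPKM value of each gene and library. The aligner, counting tool, build and annotation are not given in the sources used here. The deposited estimated counts were rounded, and group differences came from edgeR 4.0.16 (quasi-likelihood test; R 4.3.3; TMM; filterByExpr with minimum count 10 and total 15), with Benjamini-Hochberg adjustment over the 11727 genes kept of 22063. The FPKM values of the authors served for levels and, with the counts, for the implied transcript length. Standard errors come from the F statistic, intervals are at 95%, and the common biological coefficient of variation was 0.0551. Totals of 15435074 to 17220281 limit precision. Counts differed between replicates by a chi-square of 3.15 (si-NC) and 4.0 (si-*Itgb6*) per gene, more than sampling noise. Positions and overlaps came from GENCODE vM21 (GRCm38), promoters from RefSeq. The members and lists were chosen with earlier results of these data known. All members are named, and of the lists the genes at an adjusted p under 0.05. Further genes of the lists, such as *Il6st* and *Adam10*, are named outside this rule. These did not pass the adjusted threshold or were not tested. DESeq2 1.42.0 was an alternative, with other tests, normalizations, filters, thresholds, trends on GC content and length, and leaving out each library. The length offset and DESeq2 without its filter were added after seeing the data.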

Additional observations from a re-analysis of the deposited data

How the results depend on the processing

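The 3 members that rose became 8 with the exact test and 8 with the likelihood ratio test. They were 7 without a filter and 7 with at least 10 counts in every library. At the thresholds of the study they were 12, and with a fold over 1.5 they were 1. After GC and length trends were taken out 1 was left, and 1 with the transcript length offset. Counts over all genes moved as well. Over all genes 247 rose in the main fit, 298 with the exact test and 310 with the likelihood ratio test. Without a filter 369 rose, with at least 10 counts in every library 309, and at the thresholds of the study 512. After the trends were taken out 120 rose, with the length offset 64 and with DESeq2 140. DESeq2 gave 0, but its own filter left 21 of the 31 members, *Tnfsf15* among them, with no adjusted p, and without that filter it gave 1, *Tnfsf15*. Without 1 library the number ranged from 0 to 7, with 7 without si-*Itgb6* replicate 1 and 0 without si-NC replicate 2, a fit that called 13 genes in all against 542. A fit with 1 library in a group assumes that it varies like the other group. Members that fell numbered 0, except 4 at the thresholds of the study. Of the 10 other fits, *Tnfsf15* was called in the 9 that gave an adjusted p, *Il1a* in 6 and *Il33* in 5.

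The 2 pathway genes that fell were 1 after GC and length trends were taken out and 0 with a fold over 1.5, and ranged from 0 to 3 without 1 library. The 2 that rose were 1 with DESeq2, 0 with DESeq2 without its filter, 1 with library size only, 0 with the transcript length offset, 5 at the thresholds of the study and 0 with a fold change over 1.5, and ranged from 0 to 5 without 1 library. Over all genes 295 fell in the main fit and 114 after GC and length trends were taken out. Of all genes 247 rose in the main fit, 140 with DESeq2, 94 with DESeq2 without its filter and 173 with library size only. The transcript length offset called 159 genes in all, and raised the adjusted p also of *Tnfsf15* (0.0432) and *Il1a* (0.124), whose lengths did not differ.

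Signs turned for *Lif* (0.046), *Mif* (0.064) and *Hmgb1* (-0.0017) after those trends were taken out, and with the length offset for *Inhba* (-0.051). Without 1 library, the log2 fold change ranged from -0.10 to 0.091 for *Itgb6*, -0.12 to 0.092 for *Lif*, -0.036 to 0.17 for *Cxcl10*, -0.016 to 0.35 for *Ccl2*, -0.45 to 0.33 for *Ccl5* and -0.022 to 0.55 for *Il1r1*. The causes were not tested. By CPM in place of FPKM, 31 members stood at 1 or more. No paired analysis was possible because the groups share only replicate number 3.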
